A study of Mus musculus with 28 samples.

Results

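Ddn, Itpka, Itpkb and Itpr1 are 4 mouse genes whose mRNAs were followed here through the cell body and dendritic layers of the hippocampus. They were taken by symbol from the 49341 genes of the deposited gene table, and all 4 passed the filter on low values that left 24911 genes for testing (at least log2(10) in at least 3 libraries). Each layer was cut by laser capture from 8 µm frozen sections of 3 male Amigo2-GFP mice on the C57BL/6J background, aged 6 to 8 weeks and taken near the end of their light phase. These animals carry a green fluorescent reporter, which every group shares, and they received no treatment that separates the groups. The dentate gyrus (DG) and the fields CA1, CA2 and CA3 gave both layers from each of mice 492, 496 and 502, which gave 8 groups of 3 libraries and 24 libraries in all. A group name therefore stands for a layer and not for purified neurons.

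Dendrin, the product of Ddn, is a protein of the postsynaptic density, and its mRNA is a long-known example of an mRNA found in hippocampal dendrites. The mRNA of Itpka was described in dendrites in the same way. Its protein, inositol 1,4,5-trisphosphate 3-kinase A, binds actin in dendritic spines and phosphorylates inositol trisphosphate (IP3), the messenger that opens calcium channels of the endoplasmic reticulum. Itpkb encodes a second kinase of the same family. Itpr1 encodes the type 1 IP3 receptor, which is the calcium channel that IP3 opens and the main one of its family in neurons.

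On the scale of these libraries, Ddn was higher and Itpka lower in the dendritic than in the cell body layers. This compares relative levels of 2 layers and does not say whether an mRNA is present in dendrites. Relative to the rest of each library, the mRNA of Ddn was 4.35-fold higher in the dendritic than in the cell body layer as a mean of 4 subregions, and that of Itpka was 2.94-fold lower. Itpkb was 3.18-fold higher and Itpr1 2.08-fold higher. In each of the 4 subregions all 3 mice gave the same direction for all 4 genes, and the dendritic and cell body libraries did not overlap. How many of all tested genes did the same was not counted, so this does not set the 4 genes apart. In the mean contrast, 45.2% of all tested genes were called by limma (adjusted p below 0.05), with 19.8% higher and 25.4% lower in dendrites. A call alone thus does not set these genes apart either. The mean difference of Ddn exceeded that of 91.7% of the tested genes, that of Itpkb exceeded 88.5% and that of Itpr1 81.7%, whereas 10.2% of genes lay below Itpka.

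The libraries of the 2 layers differed in several ways besides the neuronal compartment. Dendritic libraries were made from 1 ng of RNA and cell body libraries from 5 ng, so input and compartment cannot be told apart. The deposited values were normalized, so their sums do not measure read depth. The linear values summed to 29.2 to 55.5 M in cell body libraries and to 36.9 to 98.7 M in dendritic ones. Mitochondrially encoded RNA made up 4.21 to 9.08% of that sum in cell bodies and 29.5 to 46.9% in dendrites. Markers of other cells were higher in dendritic layers as well. All 12 astrocyte, 10 oligodendrocyte, 6 oligodendrocyte precursor, 10 microglia and 10 endothelial and mural markers rose in the mean contrast, as did 10 of 12 interneuron markers. After scaling to totals these counts were 9 of 10 for endothelial and mural and 9 of 12 for interneuron markers, with no change for the other lists. The summed astrocyte level spanned 15.8 to 17.3 (log2) in cell bodies and 18.9 to 20.0 in dendrites, and the microglial sum 11.2 to 11.9 and 14.5 to 15.7. Oligodendrocyte markers summed to 13.6 to 15.7 and 16.8 to 17.9, precursor markers to 9.20 to 11.1 and 13.2 to 14.1, endothelial and mural markers to 10.6 to 12.6 and 13.98 to 15.1, and interneuron markers to 13.8 to 15.7 and 14.7 to 16.6. None of these markers was at 0 in all libraries. In their own subregion, the dendritic layer was lower for 4 of 8 markers of CA1 (2 were higher and 2 did not pass), 8 of 9 of CA2, 5 of 7 of CA3 and 5 of 8 of dentate granule cells. The part of these other cells in the results below was not tested. In bulk RNA, fewer cells of a type and less RNA per cell cannot be told apart.

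Ddn lies on chromosome 15 of GRCm38 (98803777 to 98809490, minus strand) and was measured through 1 listed transcript, Ddn-201. GENCODE M21 holds another version of that transcript than the deposited table names, and its version has 2 exons and 3745 bases. In CA1 its level was 15.04, 15.05 and 15.33 (log2) in the cell bodies of mice 492, 496 and 502, and 17.75, 18.04 and 18.16 in the dendrites. The DG gave nearly the same picture, with cell bodies at 14.77, 14.72 and 14.69 and dendrites at 17.70, 17.76 and 17.39. The lowest dendritic library of these 2 subregions stood far above the highest cell body library.

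The gap was narrower in CA2, where Ddn was at 15.01, 15.06 and 14.97 in cell bodies, and dendrites gave 16.22, 16.41 and 16.33. In CA3 it was at 14.24, 14.17 and 14.30 in cell bodies, and dendrites gave 15.87, 15.64 and 15.55. Over the subregions, as deposited, cell body levels of Ddn spanned 14.17 to 15.33 and dendritic levels the wider range of 15.55 to 18.16.

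By limma with mouse as a block and Benjamini-Hochberg adjustment over all genes, the difference of Ddn between dendrites and cell bodies was 2.84 ± 0.132 (log2, SE, 3 mice) in CA1 (adjusted p = 6.17e-14) and 2.89 ± 0.132 in DG (adjusted p = 2.66e-14). It was 1.30 ± 0.132 in CA2 (adjusted p = 4.69e-08) and 1.45 ± 0.132 in CA3 (adjusted p = 1.15e-08). The share of all genes called was 24.8% for CA1, 28.0% for CA2, 22.1% for CA3 and 22.3% for DG. As linear folds, Ddn was 7.16-fold higher in the dendrites of CA1 and 7.42-fold higher in those of DG, against 2.47-fold in CA2 and 2.74-fold in CA3. Scaling to totals brought the CA1 difference down to 1.86, still past the threshold.

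**Figure D1:**
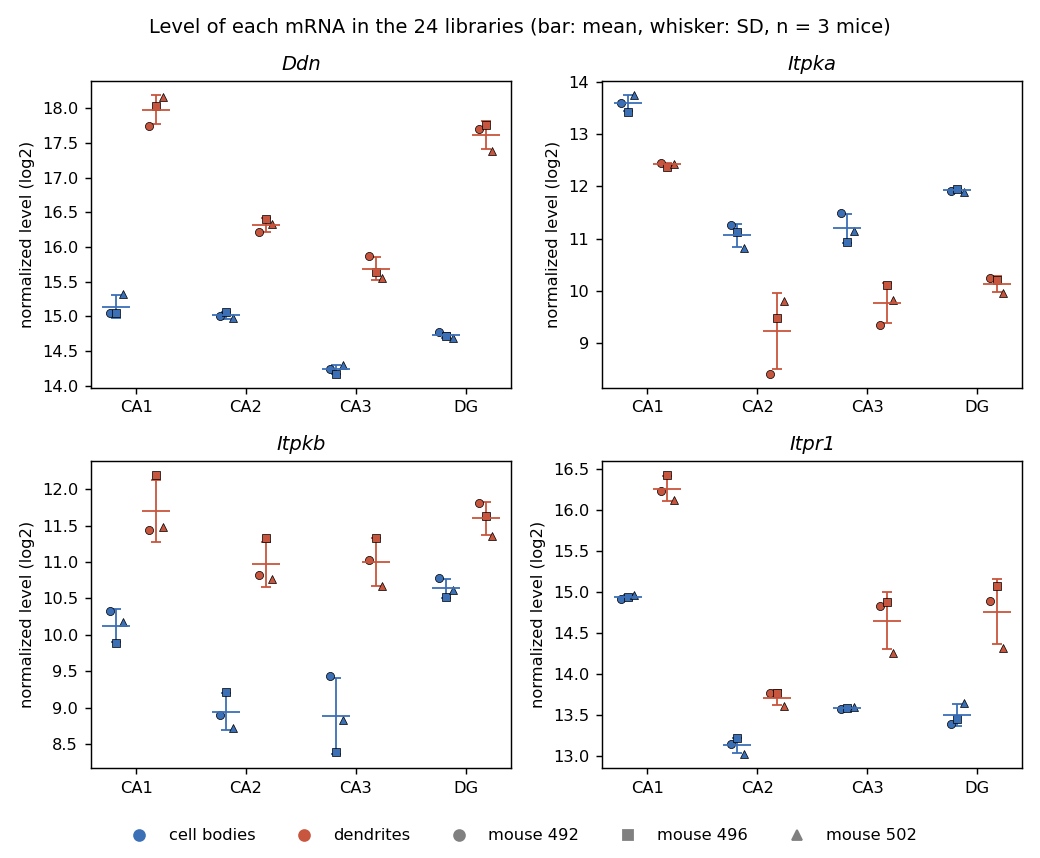
Level of Ddn, Itpka, Itpkb and Itpr1 (log2, as deposited) on the vertical axes in the 24 libraries, by subregion and layer; symbols are mice, bars are means and whiskers SD of 3 mice. The dendritic libraries lie above the cell body libraries for Ddn, Itpkb and Itpr1 and below them for Itpka in each subregion, and the axes do not start at 0.

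Whether the compartment difference of Ddn differed between subregions was tested directly. It was larger in CA1 than in CA2 by 1.53 (log2, 95% interval 1.15 to 1.92, limma adjusted p = 8.47e-06) and larger in CA1 than in CA3 by 1.39 (1.00 to 1.77, adjusted p = 6.6e-05). The shares of all genes called in these 2 comparisons were 10.1% and 4.14%. The difference was smaller in CA2 than in DG by 1.59 (adjusted p = 3.8e-06) and smaller in CA3 than in DG by 1.44 (adjusted p = 1.94e-05), where 7.11% and 3.99% of genes were called. CA1 against DG gave -0.05 (95% interval -0.44 to 0.34) and CA2 against CA3 gave -0.15 (-0.54 to 0.24), and neither passed, with 2.99% and 1.4% of genes called. The 4 calls depended on the scaling between libraries. After quantile normalization the same contrasts were 0.32, 0.38, -0.25 and -0.31, and none of them passed. After scaling to library totals the CA1 contrasts with CA2 and CA3 shrank to 0.66 and 0.67 and no longer passed, while those of CA2 and CA3 with DG were -1.05 in each and still passed. With mitochondrial RNA left out of the totals the 2 CA1 contrasts were 0.62 and 0.78 (adjusted p = 0.106 and 0.0513), also lost.

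In the dendritic layers, the order of Ddn was CA1 (17.98 ± 0.211, SD, n = 3), DG (17.62), CA2 (16.32 ± 0.0968) and CA3 (15.69). CA1 and DG differed by 0.36 (95% interval 0.09 to 0.64), which did not pass (limma adjusted p = 0.0726). DG exceeded CA2 by 1.30 and CA2 exceeded CA3 by 0.63, both past the threshold (adjusted p = 1.03e-06 and 0.0146), in comparisons where 2.38% and 1.14% of genes were called. DG exceeded CA3 by 1.93 (adjusted p = 8.03e-10, 5.57% of genes called). The call of CA2 against CA3 was lost without any 1 of the 3 mice, with values of 0.55 to 0.77, and also after scaling to totals (0.67, adjusted p = 0.083), with an untrended spread (adjusted p = 0.197) and without the columns that have a repeat library (0.74, adjusted p = 0.246). In the cell body layers the order was CA1 (15.14), CA2 (15.01), DG (14.73) and CA3 (14.23). Cell bodies of CA1 and of CA2 both exceeded those of CA3 (0.91 and 0.78, adjusted p = 3.47e-05 and 0.000475), where 6.58% and 3.58% of genes were called, the second call being lost without mouse 492. DG exceeded CA3 by 0.49 (adjusted p = 0.0112, 14.5% of genes called), a call lost without mouse 492 or 496. CA1 exceeded CA2 by 0.13 and CA2 exceeded DG by 0.29, which did not pass. After quantile normalization CA1 exceeded CA2 by 0.47 (adjusted p = 0.0373), and CA2 minus DG turned to -0.70 (adjusted p = 0.00067). CA1 against DG cell bodies, at 0.42 (adjusted p = 0.0463, 10.0% of genes called), lost its call without any 1 mouse and turned to -0.24 after quantile normalization.

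Itpka lies on chromosome 2 (119742337 to 119751263, plus strand) and was measured through 1 listed transcript, Itpka-201, with 7 exons and 1818 bases. Its levels in CA1 cell bodies were 13.60, 13.43 and 13.74 (log2), and those in CA1 dendrites were 12.45, 12.38 and 12.43. In DG they were 11.92, 11.96 and 11.90 in cell bodies, with 10.24, 10.20 and 9.96 in dendrites. The mice were close to each other in both of these subregions, and each dendritic library lay more than 1 log2 unit below the cell body library of its mouse.

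CA2 and CA3 were more variable. In CA2, Itpka was at 11.25, 11.12 and 10.83 in cell bodies, and dendrites gave 8.42, 9.48 and 9.80. In CA3 it was at 11.50, 10.94 and 11.15 in cell bodies, and dendrites gave 9.36, 10.12 and 9.82. Mouse 492 had the lowest dendritic value of Itpka in both, and its within-mouse differences were -2.84 in CA2 and -2.14 in CA3. Even the lowest dendritic library was well above the filter, so the mRNA was detected in every dendritic library.

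The limma difference of Itpka between dendrites and cell bodies was -1.17 ± 0.271 (log2, SE) in CA1 (adjusted p = 0.002), -1.84 ± 0.271 in CA2 (adjusted p = 1.11e-05), -1.43 ± 0.271 in CA3 (adjusted p = 0.000305) and -1.79 ± 0.271 in DG (adjusted p = 1.69e-05). The shares of all genes called lower were 9.56%, 17.2%, 11.4% and 9.31%. Scaling to totals took the CA1 difference to -2.16. None of the 6 pairwise differences between subregions passed; they ranged from -0.40 for CA2 against CA3 (95% interval -1.20 to 0.39) to 0.66 for CA1 against CA2 (-0.13 to 1.46). Intervals of that width leave room for differences above 1 log2 unit.

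Itpka was highest in CA1 in both layers. Among dendrites, CA1 (12.42 ± 0.0371, SD, n = 3) exceeded DG (10.13) by 2.29, CA3 (9.77) by 2.65 and CA2 (9.23) by 3.19 (limma adjusted p = 2.72e-06, 1.02e-06 and 3e-08). The shares of genes called in these comparisons were 12.6%, 5.67% and 9.82%. The neighbours DG, CA3 and CA2 did not pass against each other (CA3 minus DG -0.37, CA2 minus CA3 -0.53, CA2 minus DG -0.90 with adjusted p = 0.0871). CA2 minus DG passed after quantile normalization (-1.08, adjusted p = 0.0378) and without the CA2 dendritic library of mouse 502 (-1.21, adjusted p = 0.0264). Among cell bodies, CA1 (13.59) exceeded DG (11.92) by 1.67, CA3 (11.20) by 2.39 and CA2 (11.07) by 2.52 (adjusted p = 9.3e-05, 8.16e-07 and 4.3e-07), where 10.0%, 6.58% and 7.26% of genes were called. DG exceeded CA2 by 0.86 (adjusted p = 0.0294), a call lost without mouse 496 or mouse 502. DG exceeded CA3 by 0.72 without passing (adjusted p = 0.0817), and that difference was 1.17 to 1.37 and past the threshold under the 3 other scalings.

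Itpkb lies on chromosome 1 (180330485 to 180424802, plus strand) and was measured through 1 listed transcript, Itpkb-201, of 8 exons and 6235 bases. In CA2 its levels were 8.90, 9.22 and 8.72 (log2) in cell bodies, with 10.83, 11.33 and 10.76 in dendrites. In CA3 they were 9.44, 8.40 and 8.83 in cell bodies, with 11.02, 11.33 and 10.66 in dendrites. Dendritic libraries were thus higher by about the same amount in both, and the cell body libraries of CA3 were the most spread.

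CA1 cell bodies held Itpkb at 10.32, 9.89 and 10.17, against 11.44, 12.19 and 11.48 in CA1 dendrites. The DG cell bodies were at 10.78, 10.52 and 10.62 and the DG dendrites at 11.81, 11.63 and 11.36. The DG groups lay closest together of the 4 pairs, though without overlap.

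The limma difference of Itpkb between dendrites and cell bodies was 1.57 ± 0.272 (log2, SE) in CA1 (adjusted p = 8.31e-05), 2.02 ± 0.272 in CA2 (adjusted p = 2.89e-06), 2.12 ± 0.272 in CA3 (adjusted p = 2.2e-06) and 0.96 ± 0.272 in DG (adjusted p = 0.0113). The shares of all genes called higher were 15.2%, 10.8%, 10.6% and 13.0%. The DG call was lost without mouse 492 or 502 and after scaling to totals (0.31), and the CA1 call after scaling to totals (0.59). No pairwise difference between subregions passed as deposited: CA2 minus DG was 1.06 (95% interval 0.27 to 1.86, adjusted p = 0.104) and CA3 minus DG 1.16 (0.36 to 1.95, adjusted p = 0.106). CA2 minus DG passed under the 3 other scalings, with values of 1.30 to 1.76, and CA3 minus DG under both scalings to totals, at 1.54 in each. CA1 minus CA2 went from -0.45 to -1.37 and passed after scaling to totals without mitochondrial RNA (adjusted p = 0.0297).

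Levels of Itpkb in dendrites did not differ past the threshold between any pair of subregions as deposited; the means ran from 10.97 in CA2 and 11.00 in CA3 to 11.60 in DG and 11.70 in CA1. CA3 minus DG passed after quantile normalization (-0.84, adjusted p = 0.0465). Cell body levels of Itpkb did differ past the threshold between subregions as deposited. DG (10.64) and CA1 (10.13) did not pass against each other as deposited (CA1 minus DG -0.51), but did under the 3 other scalings, at -0.93 to -0.79 (adjusted p = 0.0191 to 0.0496). DG exceeded CA2 (8.95) by 1.69 and CA3 (8.89) by 1.75 (limma adjusted p = 4.81e-05 and 3.57e-05), in comparisons with 17.2% and 14.5% of genes called. CA1 exceeded CA2 by 1.18 and CA3 by 1.24 (adjusted p = 0.00582 and 0.00368), the first lost without mouse 492 or 502 and the second without mouse 502.

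Itpr1 lies on chromosome 6 (108213096 to 108551109, plus strand). Its CA1 levels were 14.91, 14.93 and 14.97 (log2) in cell bodies, with 16.23, 16.42 and 16.12 in dendrites. In DG they were 13.39, 13.45 and 13.65 in cell bodies, with 14.88, 15.08 and 14.32 in dendrites. Mouse 502 had the smallest gap in both, and it had the lowest dendritic value of the 3 mice in all 4 subregions.

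The CA3 cell bodies held Itpr1 at 13.57, 13.59 and 13.59 and the CA3 dendrites at 14.82, 14.88 and 14.25. In CA2 the values were 13.15, 13.21 and 13.02 in cell bodies, with 13.76, 13.77 and 13.60 in dendrites. The CA2 difference was small but nearly equal in the 3 mice, at 0.62, 0.55 and 0.58.

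The limma difference of Itpr1 between dendrites and cell bodies was 1.32 ± 0.160 (log2, SE) in CA1 (adjusted p = 5.55e-07), 0.58 ± 0.160 in CA2 (adjusted p = 0.00707), 1.07 ± 0.160 in CA3 (adjusted p = 1.74e-05) and 1.26 ± 0.160 in DG (adjusted p = 1.23e-06). The CA2 call was lost without mouse 492 (adjusted p = 0.115), and the CA1 value was 0.34 after scaling to totals and no longer passed. Other scalings moved the CA2 value up to 1.32 (quantile), and scaling to totals the DG value down to 0.61, both past the threshold. The compartment difference was larger in CA1 than in CA2 by 0.74 (95% interval 0.27 to 1.20, adjusted p = 0.0376), where 10.1% of all genes were called. That call was lost without mouse 492 or 496. It was also lost without any 1 CA2 library and without any 1 CA1 library of mouse 492 or 496 (limma adjusted p = 0.0508 to 0.109). The same held with an untrended spread (adjusted p = 0.158) and without the columns that have a repeat library (adjusted p = 0.12). That contrast turned to -0.41 after quantile normalization and to -0.14 and -0.18 after scaling to totals with and without mitochondrial RNA, none of which passed.

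Like Itpka, Itpr1 was highest in CA1 in both layers. Its CA1 dendrites (16.26 ± 0.154, SD, n = 3) exceeded DG (14.76) by 1.50, CA3 (14.65) by 1.61 and CA2 (13.71) by 2.55 (limma adjusted p = 5.81e-07, 6.26e-07 and 7.84e-10). CA3 minus DG was -0.11, which did not pass (-0.50 after quantile normalization, adjusted p = 0.00317), and both exceeded CA2 (by 1.05 and 0.94, adjusted p = 0.00023 and 0.00182), each of these 2 calls being lost without mouse 492 and the CA3 one also without mouse 496. Among cell bodies, CA1 (14.94) exceeded CA3 (13.58) by 1.35, DG (13.50) by 1.44 and CA2 (13.13) by 1.81 (adjusted p = 1.48e-06, 3.36e-07 and 1.79e-08). The 3 lower subregions did not pass against each other as deposited, and CA3 minus DG turned from 0.08 to between -0.63 and -0.55, past the threshold, under the 3 other scalings. Under the same scalings CA2 minus DG went from -0.37 to between -1.17 and -1.10 (adjusted p = 9.7e-09 to 2.53e-06) and CA2 minus CA3 to between -0.57 and -0.54 (adjusted p = 0.00184 to 0.0171), all past the threshold.

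**Figure D2:**
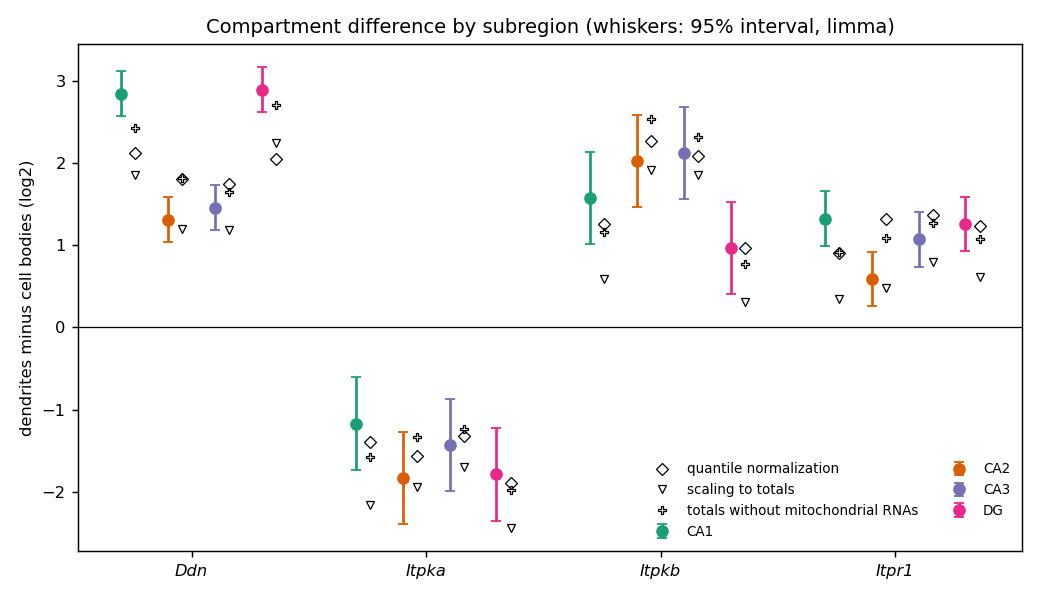
Dendrites minus cell bodies (log2, vertical axis) for each mRNA and subregion; filled circles are limma estimates with 95% intervals and open symbols the same estimates under 3 other scalings of the libraries. Each estimate stayed above 0 for Ddn, Itpkb and Itpr1 and below 0 for Itpka, while the distance between CA1 or DG and CA2 or CA3 for Ddn shrank under the other scalings.

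Any factor that scales a whole library cancels in the difference between 2 mRNAs of that library. The deposited values are not per length, so only the change of such a difference between layers is read, as a description. Ddn gained on Itpka from cell bodies to dendrites by 4.01 ± 0.144 (log2, SD, n = 3) in CA1 and by 4.68 ± 0.0988 in DG, against 3.14 ± 0.837 for CA2 and 2.89 ± 0.788 for CA3. The 12 cell body libraries spanned 1.44 to 4.14 and the 12 dendritic libraries 5.30 to 7.80, with no overlap even across subregions. Ddn and Itpka each differed between the layers already, in opposite directions. How many other pairs of genes did the same was not counted, so this does not set the pair apart.

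The kinases Itpkb and Itpka moved apart in the same sense. Itpkb gained on Itpka by 2.74 (CA1), 3.86 (CA2), 3.55 (CA3) and 2.75 (DG), and the libraries ran from -3.57 to -1.13 in cell bodies and from -1.02 to 2.41 in dendrites. Itpr1 gained on Itpka by 2.49, 2.42, 2.50 and 3.05 in the same order. Among the mRNAs that were higher in dendrites, Ddn gained on Itpr1 by 1.52 ± 0.149 in CA1 and 1.63 ± 0.348 in DG, and by 0.72 ± 0.115 in CA2 and 0.39 ± 0.206 in CA3. The larger gain of Ddn in CA1 and DG is thus also seen relative to Itpr1 of the same libraries; it was described and not tested.

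**Figure D3:**
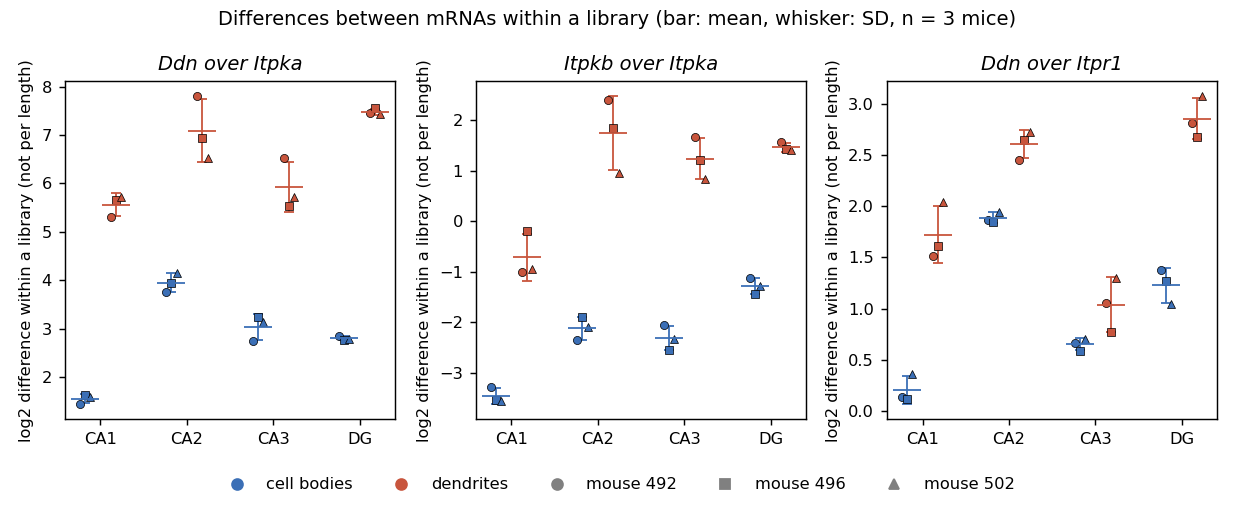
Difference between 2 mRNAs of the same library (log2, not per length, vertical axes) by subregion and layer; symbols are mice, bars are means and whiskers SD of 3 mice. Ddn over Itpka spans 1.44 to 4.14 in cell bodies and 5.30 to 7.80 in dendrites, without overlap. A constant factor on a library cannot change this quantity, but quantile normalization can. Other pairs of genes were not counted.

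The transcript table, which was normalized separately, listed 1 transcript each for Ddn, Itpka and Itpkb and 3 for Itpr1. In it the mean differences between dendrites and cell bodies were 1.95 ± 0.0494 (log2, SE) for Ddn, -1.73 ± 0.133 for Itpka and 1.45 ± 0.129 for Itpkb, with the directions of the gene table. Of the Itpr1 transcripts, Itpr1-201 and Itpr1-205 encode the receptor and Itpr1-213, with 11 exons and 1462 bases, is annotated for nonsense-mediated decay. Itpr1-201 and Itpr1-205 have 62 exons each and share 60 of them exactly. Itpr1-201 has 106 more bases in exon 1, outside the coding sequence, and 3 more bases at the start of exon 42 (chr6:108432646-108432696, plus strand, GRCm38, GENCODE M21), a difference that keeps the reading frame. Exon 42 is shown because, inside the coding sequence, it alone separates the 2 receptor transcripts; capitals mark the bases that Itpr1-205 lacks.
Itpr1-201 exon 42: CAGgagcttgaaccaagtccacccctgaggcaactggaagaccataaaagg
Itpr1-205 exon 42: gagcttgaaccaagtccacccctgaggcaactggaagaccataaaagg

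As a mean of 4 subregions, Itpr1-201 was higher in dendrites by 0.73 (log2, limma adjusted p = 0.00080), Itpr1-205 by 0.75 (adjusted p = 1.2e-06) and Itpr1-213 by 1.02 (adjusted p = 2.69e-06). In CA2, Itpr1-205 was higher by 0.76 (adjusted p = 0.00524), while Itpr1-201 was at -0.09 (95% interval -0.73 to 0.55). In CA3, Itpr1-201 was higher by 1.19 (adjusted p = 0.011) and Itpr1-205 was at 0.34 (-0.04 to 0.71), which did not pass. A test of unequal change among the transcripts of a gene (limma's diffSplice) did not pass for Itpr1 in the mean contrast (adjusted p = 0.497, with 20.5% of 10025 genes called) or in any subregion (adjusted p = 0.468 to 0.971, with 6.88%, 4.07%, 2.47% and 2.72% of genes called from CA1 to DG). The share of Itpr1-201 in the listed Itpr1 transcripts ranged over 24.6 to 51.4% in cell body libraries and 21.4 to 57.5% in dendritic libraries, and that of Itpr1-205 over 43.2 to 68.6% and 33.5 to 72.3%. The ranges of the 2 layers overlapped widely for both, and the 2 transcripts differ by few bases from which short reads could be assigned.

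**Figure D4:**
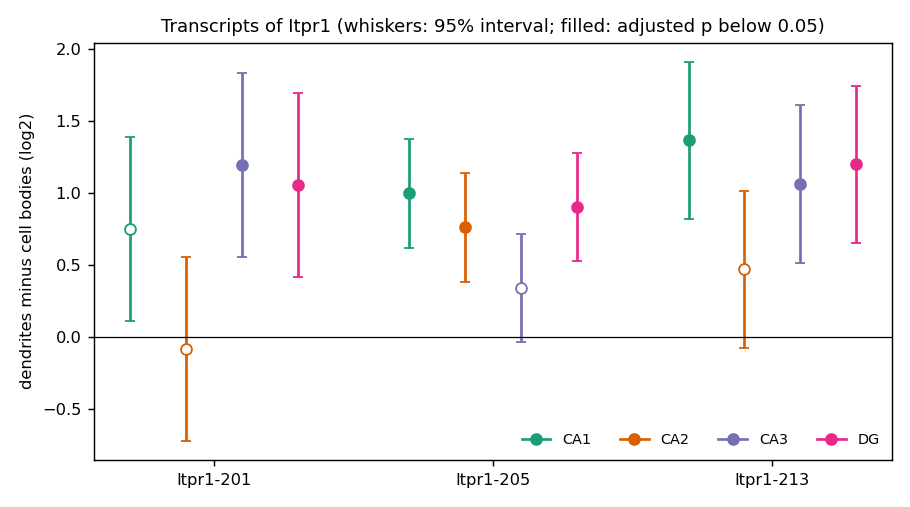
Dendrites minus cell bodies (log2, vertical axis) for the 3 listed transcripts of Itpr1 in each subregion, with 95% intervals from limma; filled circles have an adjusted p below 0.05. Itpr1-205 passed in CA1, CA2 and DG and Itpr1-201 in CA3 and DG, and their intervals overlap in each subregion.

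Ddn, Itpr1 and Itpkb have annotated neighbours on the opposite strand. B130046B21Rik shares 177 exon bases with Ddn, and its level was 6.44 to 8.20 (log2) in cell bodies and 1.68 to 7.91 in dendrites. Gm44101 and Gm44040 share 181 and 108 exon bases with Itpr1 and were listed at 0 to 4.87 and 0 to 4.46 in cell bodies and at 0 to 8.00 and 0 to 4.96 in dendrites. Gm5069 shares 66 exon bases with Itpkb and was at 5.44 to 8.12 in cell bodies and 6.33 to 8.80 in dendrites. No source used here states whether strand was used in counting, so reads from these overlaps could not be assigned to a strand.

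Other mRNAs long described in dendrites were divided in the mean contrast. Of 16 listed, 10 were higher and 6 lower in dendrites, with a median of 1.00 (log2) against -0.20 over all genes. Of all tested genes, 19.8% were called higher and 25.4% lower. Camk2a, the alpha subunit of calcium/calmodulin-dependent kinase II, was higher by 2.53 ± 0.0587 (SE), Shank1, a scaffold of the postsynaptic density, by 3.00, Map2, a microtubule protein of dendrites, by 2.67 and Ppp1r9b, which encodes spinophilin, by 2.56 (limma adjusted p from 1.45e-20 to 2.51e-19). The 6 lower ones, named after their values were seen, were Bdnf (-3.33), Gria2 (-2.11), Nrgn (-2.06), Gria1 (-1.35), Actb (-1.04) and Calm3 (-0.64). The difference of Ddn (2.12) lay among the first group and that of Itpka (-1.56) among the second. Under scaling to totals 9 of the 16 were higher, with Arc at 0.27 no longer passing. By subregion as deposited, Arc passed only in DG (1.77), and Eef1a1 did not pass in CA2 (0.25) or DG (0.26). Of the lower ones, Actb did not pass in DG (-0.47) and Calm3 did not pass in CA1 (-0.05).

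Genes that make IP3 were also divided, by subtype. Of 12 listed, 5 were higher and 6 lower, with a median of -0.27 (log2) against -0.20 over all genes, of which 19.8% were called higher and 25.4% lower. The median was 0.01 without mouse 492, and 3 were higher after scaling to totals. The receptors that start the signal, Grm5 (-1.75 ± 0.106, SE), Chrm1 (-1.90), Chrm3 (-1.18) and Htr2a (-0.89), were lower in dendrites (limma adjusted p from 8.6e-13 to 0.0207), as were the G protein Gnaq (-0.89) and the phospholipase Plcb1 (-1.39). In DG, Chrm3 (1.11) and Htr2a (1.23) pointed the other way without passing. Plcb3 (3.50 ± 0.212), Plcb4 (1.72), Plcb2 (2.37), Plcg2 (1.96) and the G protein Gna11 (0.50) were higher (adjusted p from 7.91e-13 to 0.0223). The Htr2a call was lost without mouse 492 or 502, the Plcg2 call without mouse 496 or 502 and under 2 scalings, and Gna11 was at 0.0020 after scaling to totals. The rise of the non-neuronal markers given above moved with the higher group; its part was not tested.

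Among 9 other kinases of inositol polyphosphates, Itpkc, the third IP3 3-kinase, was lower in dendrites by 1.63 ± 0.591 (log2, SE, limma adjusted p = 0.027), a call lost without mouse 496 (-0.76) or mouse 502 (-1.93). Ippk (-1.68) and Ip6k2 (-2.09), which act further along the inositol phosphate pathway, were lower (adjusted p = 8.36e-08 and 3.36e-10), and Ppip5k1 was at -0.40 (adjusted p = 0.037), a call lost without mouse 492 or 502. Ip6k3 was the only one of the 9 called higher (1.68, adjusted p = 0.0413), from a mean of 0.44 in cell bodies to 2.11 in dendrites, both under the filter level, and the call was lost without any 1 mouse and without mice 492 and 496 in CA1 dendrites. The other 4 did not pass. Of these, Itpk1 was called higher in CA1 (0.96). After scaling to totals, Itpk1 (-0.53) and Ip6k1 (-0.46) were called lower in the mean contrast. Of the 3 members of the IP3 3-kinase family, Itpkb was thus called higher and Itpka and Itpkc lower. Ipmk, which also phosphorylates IP3, was at -0.16 (adjusted p = 0.377) and was -0.66 and called lower after scaling to totals. Of 8 inositol phosphatases, Synj1 (-1.43), Impa1 (-1.09) and Minpp1 (-1.52) were lower (adjusted p from 1.18e-09 to 1.86e-07), Impa2 (1.10, adjusted p = 0.0471) was higher, and 4 did not pass. Impa2 lost its call without any 1 mouse. Beside these 2 lists, 19.8% of all tested genes were called higher and 25.4% lower.

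The calcium channels of the endoplasmic reticulum split by family. The other IP3 receptors, Itpr2 and Itpr3, were higher in dendrites by 2.70 ± 0.207 and 3.41 ± 0.268 (log2, SE, limma adjusted p = 6.23e-11 and 1.08e-10), as Itpr1 was. The ryanodine receptors, which release calcium from the same store, were lower, with Ryr2 at -1.95 ± 0.106, Ryr3 at -2.29 ± 0.239 and Ryr1 at -1.51 ± 0.343 (adjusted p = 9.86e-14, 3.63e-08 and 0.000796). By subregion, Ryr1 did not pass in CA1 (-0.57) or CA3 (-0.70). The pump Atp2a2, which refills the store in neurons, was lower (-1.08, adjusted p = 1.56e-08), as were the store sensor Stim2 (-1.98) and the channels Orai2 (-0.46) and Orai3 (-1.16). By subregion, Orai2 passed only in CA2 (-1.38, adjusted p = 2.59e-05) and was at 0.36 in CA1. Neither Atp2a2 (-0.36) nor Orai3 (-0.10) passed in DG. The pump Atp2a3 was higher (4.23 ± 0.365, adjusted p = 5.62e-10), and Orai1 (0.66, adjusted p = 0.0404) lost its call without any 1 mouse, without the mouse block (adjusted p = 0.0532) and under 2 scalings. In all, 4 of 12 were higher and 7 lower, with a median of -0.77 against -0.20 over all genes. Of all tested genes, 19.8% were called higher and 25.4% lower. Itpr2 is known from astrocytes and Itpr3 from other non-neuronal cells, and the astrocyte sum rose beside them as given above; its part was not tested.

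Partners of the IP3 receptor were mostly higher in dendrites, with 6 of 8 tested genes called higher and 1 lower and a median of 1.21 (log2), beside 19.8% of all genes called higher and a median of -0.20. In CA2 alone 4 were higher and 3 lower. The 6 were Homer2 (2.26 ± 0.0950, SE), a scaffold that links the receptor to glutamate receptors, Jph3 (1.22) and Jph4 (1.36), which hold the reticulum near the cell membrane, Ahcyl1 (1.21) and Ahcyl2 (0.49), which bind the receptor where IP3 does, and Car8 (3.28), which lowers its affinity for IP3 (limma adjusted p from 6.56e-16 to 0.00178). Homer1 was lower (-0.67, adjusted p = 0.000112) and Homer3 was at -0.30 (adjusted p = 0.0697). By subregion, Homer1 passed only in CA2 (-1.45) and CA3 (-0.76). Homer3 was called higher in CA1 (1.27) and lower in CA2 (-1.51) and CA3 (-1.12). After scaling to totals Homer3 was also called lower in the mean contrast (-0.80). Ahcyl2 was lower in CA2 (-0.67, adjusted p = 0.0422), lost its mean call without mouse 496 and was at -0.012 after scaling to totals. Of 10 listed partners 9 were in the table and 8 passed the filter.

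Partners of dendrin did not share a direction. Of 7, Cd2ap (1.77 ± 0.125, log2, SE), Wwc1, which encodes the KIBRA protein (1.04), and the scaffold Magi1 (0.93) were higher in dendrites, and the actin crosslinkers Actn1 (-1.63) and Actn2 (-1.37) were lower (limma adjusted p from 1.33e-11 to 0.000286). In DG, Magi1 went the other way and was lower in dendrites (-0.96, adjusted p = 0.0434). Magi2 was at 0.10 and Actn4 at -0.09, neither of which passed. Magi2 was called higher after quantile normalization (0.31, adjusted p = 0.00151) and called lower after scaling to totals (-0.40, adjusted p = 0.00055), where Actn4 was also called lower (-0.59). Of 12 genes of spine actin, the structure that the Itpka protein binds, 10 were lower and 1 higher, with a median of -1.11 against -0.20 over all genes. Of all tested genes, 25.4% were called lower and 19.8% higher. The lowest adjusted p values belonged to Wasf1 (-2.72), Arpc2 (-2.05), Actr3 (-1.49) and Cfl1 (-0.96), which build or cut actin filaments. The kinase Limk1, named after its value was seen, was the higher one (1.10). By subregion, Cfl1 did not pass in DG (-0.12). Cfl2 and Synpo were also named after their values were seen. The Cfl2 call (-0.27) was lost without any 1 mouse. Synpo did not pass in the mean contrast, but was called higher in CA1 (0.81) and lower in CA2 (-0.58). All these lists were described by their counts and medians, which set no list apart from other genes.

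**Figure D5:**
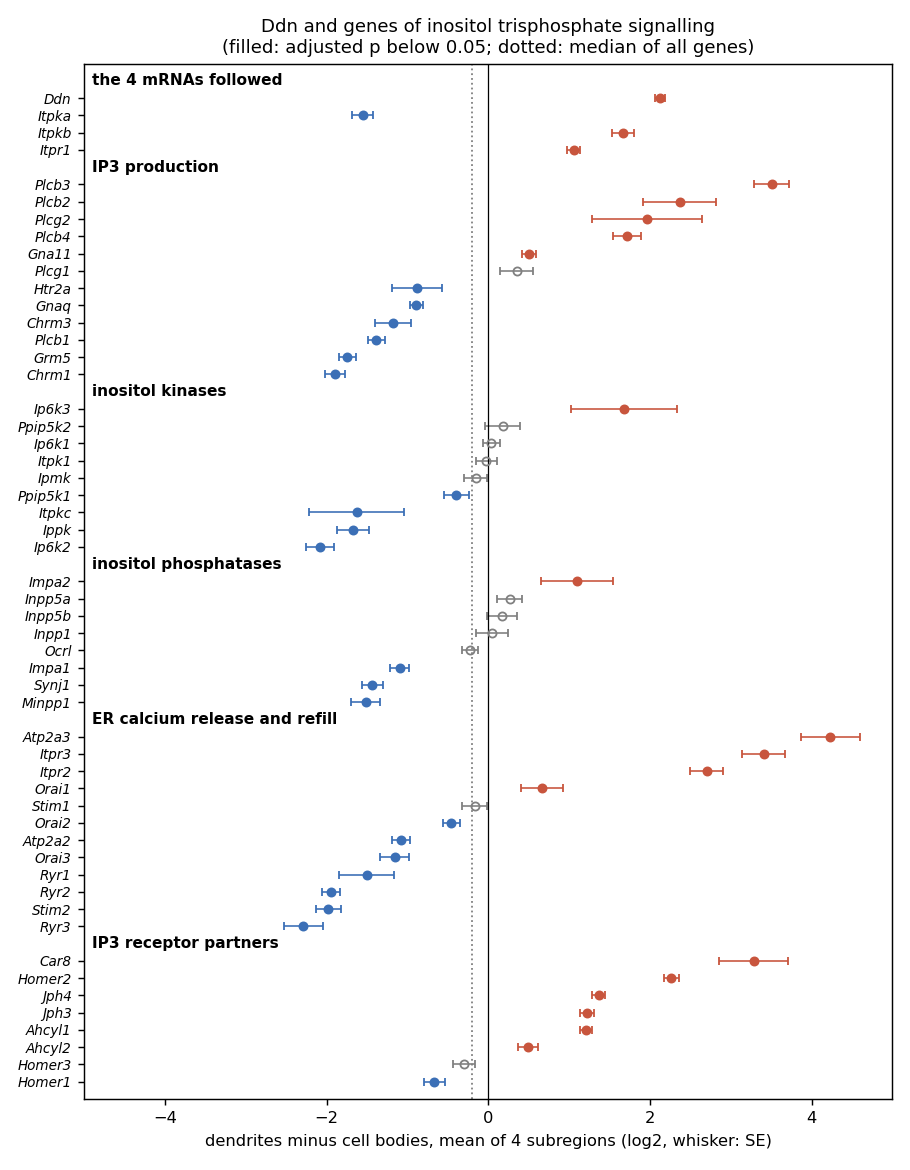
Mean difference between dendrites and cell bodies (log2, horizontal axis, whiskers SE) for the 4 mRNAs and for listed genes of IP3 signalling, ordered within each list; filled circles have a limma adjusted p below 0.05, and the dotted line marks the median of all genes (-0.20). Itpr1, Itpr2 and Itpr3 lie to the right of 0 and Ryr1, Ryr2 and Ryr3 to the left, and Itpkb lies opposite Itpka and Itpkc.

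The genes whose log2 values followed each mRNA most closely were looked up among 13219 genes, as a description over libraries that share mice, layers and subregions. Over the 24 libraries Ddn was closest to Chd3 (Pearson's r = 0.954), Ctdsp2 (0.951), Grm3 (0.941), Egln1 (0.939) and Gng7 (0.931). Itpka was closest to Grasp (0.943), Syt16 (0.931), Lmo3 (0.920), Rab8b (0.913) and Lmo1 (0.909). For Itpkb the closest were Phf2 (0.953), Marcks (0.942), Cdk19 (0.927), Smad5 (0.915) and Man1c1 (0.915), and for Itpr1 they were Bcr (0.934), Dtx4 (0.933), Npas2 (0.923), Dab2ip (0.909) and N4bp1 (0.908). No gene stood in 2 of these lists.

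Within the 12 dendritic libraries, where the layer no longer varies, the closest to Ddn were Zfp687 (0.969), Doc2b (0.967), Sowaha (0.962), Tubb2b (0.948) and Chd3 (0.940), so that Chd3 was in both lists of Ddn. Itpka was closest to Tbc1d1 (0.964), Sav1 (0.960), Syt16 (0.957), Hipk4 (0.956) and Rps27rt (0.950), with Syt16 in both of its lists. Itpkb was closest to Pde1b (0.924), Arhgap5 (0.913), Rab22a (0.909), Smarcd1 (0.909) and Mmd2 (0.908), and Itpr1 to Iqsec2 (0.989), Psd (0.983), Arid1b (0.981), Fbxl16 (0.975) and Agap2 (0.974). Itpka and Itpr1, both highest in CA1, had r = 0.911 over the dendritic libraries and 0.338 over all 24. Ddn and Itpka had 0.725 over the dendritic libraries and -0.16 over all 24, where their opposite shifts between layers enter.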

How the data were processed

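RNA of 24 laser-captured layers was measured by sequencing; another 4 dendritic libraries, labelled as repeats of CA2 or DG dendrites (mice 502 and 492), were not analysed separately here because no column is named for them. In 2 of these the title and the animal label differ. Per the labels' protocols, each mouse's libraries went through preparation and sequencing as 1 batch, and 4 with a low mapped share were remade. The authors deposited gene and transcript values as log2 of median-normalized Salmon estimates, per the file headers. The submitters' processing notes name STAR 2.5.1b, Salmon 0.9.1, featureCounts 1.5.1, limma 3.32.2, DESeq2 1.18.1 and mm10, without their roles. The values are no counts, and the sums given in the report were taken after this normalization. They do not give sequencing depth, and no counting interval was computed. An array table with 12 columns that match no library was not used.

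Under R 4.3.3, limma 3.58.1 with statmod 1.5.0 tested the 24911 genes with at least log2(10) in at least 3 libraries, with 8 groups and mouse as a block (14 residual degrees of freedom), a trended and robust spread, two-sided tests and Benjamini-Hochberg adjustment over all genes within each of 23 comparisons. A gene was called at an adjusted p below 0.05. Transcripts (47903 tested) were fitted in the same way, with diffSplice for unequal change within a gene. The scripts were tested on simulated data. Same-numbered libraries come from the same animal, which is why mouse was a block; the correlations of their deviations from group means had medians of 0.0118, 0.00834 and 0.0193 over 28 pairs per mouse. Tables were summarised with Python 3.11.15. Positions and exons are from GENCODE M21 (GRCm38); no source used here names the release behind the deposited names.

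Alternatives were no block, quantile normalization, scaling to totals with and without mitochondrial RNA, no filter or log2(100), 9 added before the log2, an untrended spread, the 2 groups alone, and leaving out mice, libraries or the columns with a repeat. Leaving out the CA1 dendritic libraries of mice 492 and 496, whose values stand apart, was added after seeing the data. The genes and gene lists were chosen with earlier results of these data known. A gene of the IP3 production list is not reported here and was left out of its counts and median. Named genes were up to 4 per list with the smallest adjusted p, every called gene of the lists next to the 4 mRNAs, and the 5 genes with the highest correlation to each.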

Additional observations from a re-analysis of the deposited data

Results flagged for a closer look

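The compartment difference of Ddn (dendrites minus cell bodies, log2) differed between subregions in 4 of 6 pairs by a direct limma test of the difference: CA1 minus CA2 1.53, CA1 minus CA3 1.39, CA2 minus DG -1.59 and CA3 minus DG -1.44 (adjusted p = 8.47e-06, 6.6e-05, 3.8e-06 and 1.94e-05). That of Itpr1 differed between CA1 and CA2 by 0.74 (adjusted p = 0.0376), where 10.1% of all genes were called. This Itpr1 call was lost when most single libraries of CA1 and CA2 were left out 1 at a time. Its sign turned under the 3 other scalings. Scalings under which calls were lost or turned stand with the results above. In each case all 3 mice of both subregions had a higher dendritic level, so these are differences in size and not in direction.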

How the results depend on the processing

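The compartment differences of Ddn and Itpka kept their direction and call in the mean and in each subregion under every alternative; the means ranged from 1.62 to 2.19 (log2) and from -2.06 to -1.36. For Itpkb and Itpr1 directions held and 11 calls were lost. Scaling to totals gave Itpkb 0.59 in CA1 and 0.31 in DG and Itpr1 0.34 in CA1. Leaving out the 4 columns with a repeat gave Itpkb 0.95 in DG and Itpr1 0.57 in CA2. An untrended, non-robust spread left Itpr1 in CA2 at 0.58 (adjusted p = 0.0531). Leaving out a mouse gave Itpkb in DG 0.88 to 1.07 and Itpr1 in CA2 0.57 to 0.60, and leaving out a library gave Itpkb in DG 0.85 to 1.04 and Itpr1 in CA2 0.568 to 0.609, with calls lost without the DG cell body library of mouse 496 and the DG dendritic library of mouse 492. Signs turned after quantile normalization, totals and totals without mitochondrial RNA for Ddn cell bodies CA1 minus DG (-0.24, -0.00013, -0.0090), Itpr1 compartment difference CA1 minus CA2 (-0.41, -0.14, -0.18) and Itpr1 cell bodies CA3 minus DG (-0.63, -0.56, -0.55), and after quantile normalization for Ddn cell bodies CA2 minus DG (-0.70). The cause was not tested.

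Without the replicate block, which treats the 3 libraries of a group as unpaired, one call of the 4 mRNAs changed, that of the Itpr1 compartment difference CA1 minus CA2 (0.74, adjusted p = 0.0614), and 3 listed genes lost theirs in the mean contrast, Orai1, Pecam1 and Grik4 (adjusted p = 0.0532, 0.135 and 0.0537). Scaling to totals moved the median of all genes in the mean contrast from -0.20 to -0.71, in CA1 from -0.11 to -1.10. Counts of genes called moved by over 1.5 times in CA1 from 6166 to 10289 (totals) and 2561 (2 groups alone, fewer samples), in CA2 from 6979 to 4592 without mouse 502 and 3980 without the columns with a repeat, in CA3 from 5493 to 3569 without mouse 502, and in DG from 5545 to 3424 and 3242 under the same 2 settings. The genes called higher in CA1 went from 3784 of 6166 to 3178 of 7268 (quantile), 2097 of 10289 (totals) and 3042 of 7846 (totals without mitochondrial RNA), in CA2 from 2682 of 6979 to 4079 of 6542 (totals without mitochondrial RNA), in DG from 3227 of 5545 to 3366 of 7055, 2164 of 8265 and 2979 of 6620, and in the mean from 4941 of 11269 to 3399 of 13733 (totals). Fitted with the 2 groups alone, 9 dendritic calls between subregions were lost (3 of Ddn, 2 of Itpka and 4 of Itpr1, adjusted p = 0.0855 to 0.764) and 4 were gained among cell bodies; the mean and the compartment differences between subregions need more than 2 groups and were not computed. An untrended spread lost 6 calls between subregions. Leaving out the columns with a repeat lost 4 and gained 1, that of Itpka cell bodies CA3 minus DG. Without mouse 502 the Itpr1 compartment difference CA2 minus DG passed (-0.97).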
